A study of Mus musculus with 9 samples.

Results

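Helper subset lineage factors are the transcription factors that direct, or help to direct, a CD4+ T cell toward a type 1, type 2, type 17, regulatory or follicular helper fate. This account covers 9 of the 55487 genes in the files, Gata3, Maf, Tbx21, Rora, Foxp3, Bcl6, Ikzf2, Ahr and Prdm1. The rule names them by their role in helper T cells and sets no threshold on a measured value. The RNA came from naive CD4+ T cells of the spleen, helper cells with no earlier contact with antigen, of wild-type C57BL6/J mice. The anti-IL-1b group was taken from mice given an antibody against the inflammatory cytokine IL-1b for 10 days, and the MCC950 group from mice given for 10 days the small molecule MCC950, which inhibits the inflammasome sensor NLRP3. The untreated group received neither agent. Each group has 3 libraries, named here by group and replicate number. The labels give no sort or gate and do not tie libraries to mice, so the replicate spread behind every p-value may be that of separate mice or only technical.

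A naive cell that meets antigen reads the cytokines around it through STAT proteins, and these induce the factor of a subset, which then activates the genes of that subset and represses the factors of the others. T-bet, encoded by Tbx21, directs type 1 cells, GATA3 directs type 2 cells, Foxp3 maintains regulatory T cells and BCL6 directs follicular helper cells. GATA3 is unusual among them in being present before a cell is committed, since CD4+ T cells need it to develop in the thymus and to persist in the periphery. The others are largely induced or raised by T cell receptor and cytokine signals as a cell differentiates.

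Levels are given on 2 scales. TPM is corrected for transcript length and scaled to a fixed total per library, and serves to compare genes. CPM is the expected count relative to the TMM-scaled total of the library, is not corrected for length, and serves to compare groups for 1 gene. Total expected counts ran from 14775375 to 16676626 per library in the anti-IL-1b group, from 16769960 to 18497827 in the MCC950 group and from 17335367 to 21394797 in the untreated group.

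The labelled cell type was checked against 14 markers of naive and CD4+ T cells, none of which was at 0 in any group. Their summed level ran from 8807 to 8816 CPM in the anti-IL-1b group, from 8089 to 8116 in the MCC950 group and from 9169 to 9270 in the untreated group. Of these 14 markers, all tested, 4 rose and 5 fell with the antibody, and 4 rose and 8 fell with MCC950. Their median log2 fold changes were -0.017 and -0.098. S1pr1 was among those that fell, with log2 fold changes of -0.507 with the antibody and -0.596 with MCC950. In the same order Ccr7 had -0.498 and -0.555, and Cd28 had -0.496 and -0.602. Cd27 was among those that rose, with 0.331 and 0.238. Markers of other spleen cells also moved with treatment. As background to all these marker counts, 15.4% of all tested genes rose and 18.5% fell with the antibody. With MCC950 the shares were 17.7% and 19.1%. All 16 B cell markers rose with either agent, with median log2 fold changes of 2.19 with the antibody and 2.5 with MCC950. Their sums were 497.0 to 515.0 CPM in the anti-IL-1b group, 487.5 to 510.9 in the MCC950 group and 323.2 to 345.1 in the untreated group. Most of each sum was Ighm, the heavy chain gene of IgM, at a mean of 388.5 CPM with the antibody, 366.1 with MCC950 and 305.6 without treatment, and the other 15 summed to means of 119.3, 131.6 and 27.4 CPM in the same order of groups. Of 13 neutrophil markers 8 were tested, of which 8 rose with the antibody and 7 with MCC950, and the 13 summed to 33.2 to 34.9 CPM in the anti-IL-1b group, 17.1 to 19.4 in the MCC950 group and 1.10 to 1.34 in the untreated group, where 8 of them were at 0, among them S100a8, Ly6g and Ltf. Of 11 markers of CD8 T and NK cells 8 were tested, of which 4 rose and 1 fell with the antibody and 3 rose with MCC950. Cd8a, the CD8 alpha chain, stood at a mean of 19.4 CPM with the antibody, 19.7 with MCC950 and 0.970 without treatment. Prf1, the gene of perforin, fell by 0.32 on the log2 scale with the antibody (adjusted p = 0.00118, edgeR) and stood at 36.9, 42.5 and 45.9 CPM in the same order of groups. The 11 markers had sums of 96.9 to 106.3 CPM in the anti-IL-1b group, 100.03 to 105.45 in the MCC950 group and 67.3 to 75.0 in the untreated group, with Klrb1c and Ncr1 at 0 in the untreated group. For monocytes, dendritic cells and macrophages 8 of 12 markers were tested, of which 5 rose with either agent and 1 fell with the antibody, Cd68, named after its values were seen (log2 fold change -1.29, adjusted p = 0.0157). The 12 had sums of 20.9 to 23.6, 21.8 to 24.0 and 8.83 to 10.3 CPM in the anti-IL-1b, MCC950 and untreated groups, with Spic and Vcam1 at 0 in the untreated group. Of 6 red cell markers 4 were tested and all 4 rose with either agent. The 6 summed to 4.38 to 5.02, 5.92 to 9.69 and 0.12 to 0.45 CPM in the anti-IL-1b, MCC950 and untreated groups. The globin genes Hba-a1, Hbb-bs and Hbb-bt were at 0 in the untreated group. Tested markers at or near 0 in the untreated group passed the filter on low counts only through treated libraries. Such markers could hardly be called other than higher. The counts of rises for neutrophil, monocyte and red cell markers were therefore largely set by the filter. The sums of the 10 markers of memory and effector T cells differed less, at 101.3 to 109.5, 96.2 to 108.8 and 109.7 to 116.8 CPM in the same 3 groups. Itgb1 alone had means of 52.4, 55.5 and 60.9 CPM. Of the 7 tested, 1 rose and 1 fell with either agent. Ly6c2 rose by 1.225 and 1.026 on the log2 scale (adjusted p = 0.00159 and 0.00727, edgeR). Itgb1 fell by 0.22 with the antibody, and Cd44 by 0.30 with MCC950. All 12 genes of a list on cell handling and early activation, among them Fos, Jun and Nr4a1, fell with either agent, with medians of -2.71 with the antibody and -2.82 with MCC950 on the log2 scale. The part of any of these in the results below was not tested. In bulk RNA, fewer cells of a type and less RNA per cell cannot be told apart.

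Gata3 held the highest level of the 9 genes in every library. Its TPM was 31.3 ± 1.65 in the anti-IL-1b group, 25.3 ± 0.631 in the MCC950 group and 40.0 ± 0.361 in the untreated group (SD, n = 3 each). Gata3 made up 59.0 to 62.5% of the summed TPM of the 9 genes in the anti-IL-1b libraries, 54.8 to 57.8% in the MCC950 libraries and 60.2 to 64.5% in the untreated libraries. Bcl6 came second in each group, at 9.70 ± 0.466, 10.2 ± 0.269 and 11.1 ± 0.347 TPM in the anti-IL-1b, MCC950 and untreated groups, with no overlap with the gene above or below it. Tbx21 came last in each group, at 0.230 ± 0.166, 0.443 ± 0.0814 and 0.233 ± 0.206 TPM in the same order of groups. The summed TPM of all 9 genes was 50.2 to 52.7 in the anti-IL-1b libraries, 43.1 to 45.5 in the MCC950 libraries and 62.6 to 66.1 in the untreated libraries, and these ranges did not overlap.

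**Figure D1:**
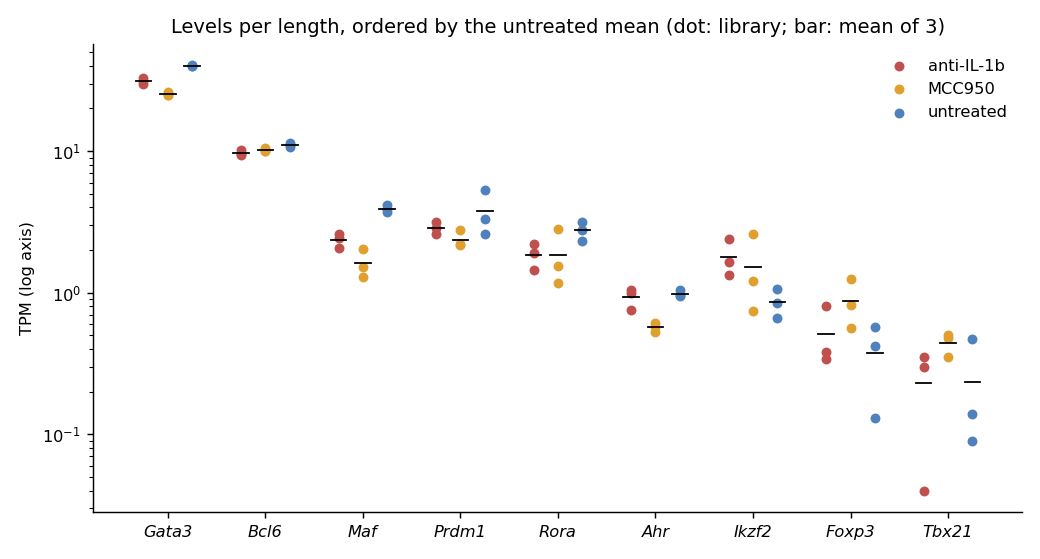
TPM of the 9 lineage factors on a log axis, with 1 dot per library, the mean of 3 as a bar, and the genes ordered by their mean in the untreated group. Gata3 at 24.9 to 40.4 TPM and Bcl6 at 9.32 to 11.4 TPM stand above the other 7 genes in all 9 libraries.

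The order between the top and the bottom differed by group. In the anti-IL-1b group Prdm1 (2.86 ± 0.266 TPM) was followed by Maf (2.36 ± 0.275), Rora (1.85 ± 0.379), Ikzf2 (1.79 ± 0.538), Ahr (0.933 ± 0.161) and Foxp3 (0.510 ± 0.261). In the MCC950 group the order was Prdm1 (2.37 ± 0.335 TPM), Rora (1.85 ± 0.868), Maf (1.61 ± 0.370), Ikzf2 (1.52 ± 0.967), Foxp3 (0.873 ± 0.343) and Ahr (0.570 ± 0.0400). In the untreated group it was Maf (3.92 ± 0.215 TPM), Prdm1 (3.75 ± 1.41), Rora (2.75 ± 0.426), Ahr (0.987 ± 0.0569), Ikzf2 (0.857 ± 0.206) and Foxp3 (0.373 ± 0.224). Many neighbours could not be ranked, because their libraries overlapped. This held for Maf and Rora, Rora and Ikzf2, Ahr and Foxp3, and Foxp3 and Tbx21 in the anti-IL-1b group. It held for each neighbouring pair of that order from Prdm1 to Ahr in the MCC950 group. In the untreated group it held for Maf and Prdm1, Prdm1 and Rora, Ahr and Ikzf2, and Foxp3 and Tbx21.

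All 9 genes passed the filter on low counts and were tested with edgeR's quasi-likelihood test, with p-values adjusted over all 13374 tested genes. With the antibody against untreated, 4 of the 9 passed an adjusted p of 0.05, of which Ikzf2 rose and Gata3, Maf and Bcl6 fell. Over all tested genes 34.0% passed in this comparison, 15.4% higher and 18.5% lower. With MCC950 against untreated, 5 of the 9 passed, of which Ikzf2 and Foxp3 rose and Gata3, Maf and Rora fell. The background here was 36.8% of all tested genes, 17.7% higher and 19.1% lower. The direction of this background depends on the scaling. Scaled by library totals, 3929 genes were higher and 1344 lower with the antibody, and 4009 higher and 1587 lower with MCC950, against 2066 and 2479, and 2369 and 2552, with TMM. Between the agents, 2 of the 9 passed, Gata3 and Maf, both higher with the antibody, against 13.2% of all tested genes, 6.13% higher and 7.11% lower. The shares of the 9 genes that passed lie near these backgrounds, so the counts themselves are no result about lineage factors. The count with MCC950 was 2 without MCC950 replicate 1, and 3 without MCC950 replicate 2 or untreated replicate 2. Between the agents it was 1 without anti-IL-1b replicate 1 or MCC950 replicate 3, and 0 by edgeR without anti-IL-1b replicate 2 or MCC950 replicate 2, where 3 and 4 of the 9 had an unadjusted p under 0.05. The CPM of the 2 groups did not overlap for 5 of the 9 with the antibody against untreated, 7 with MCC950 against untreated and 6 between the agents, where 43.2, 47.4 and 29.4% of all tested genes did not overlap. Both comparisons with untreated use the same 3 libraries.

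**Figure D2:**
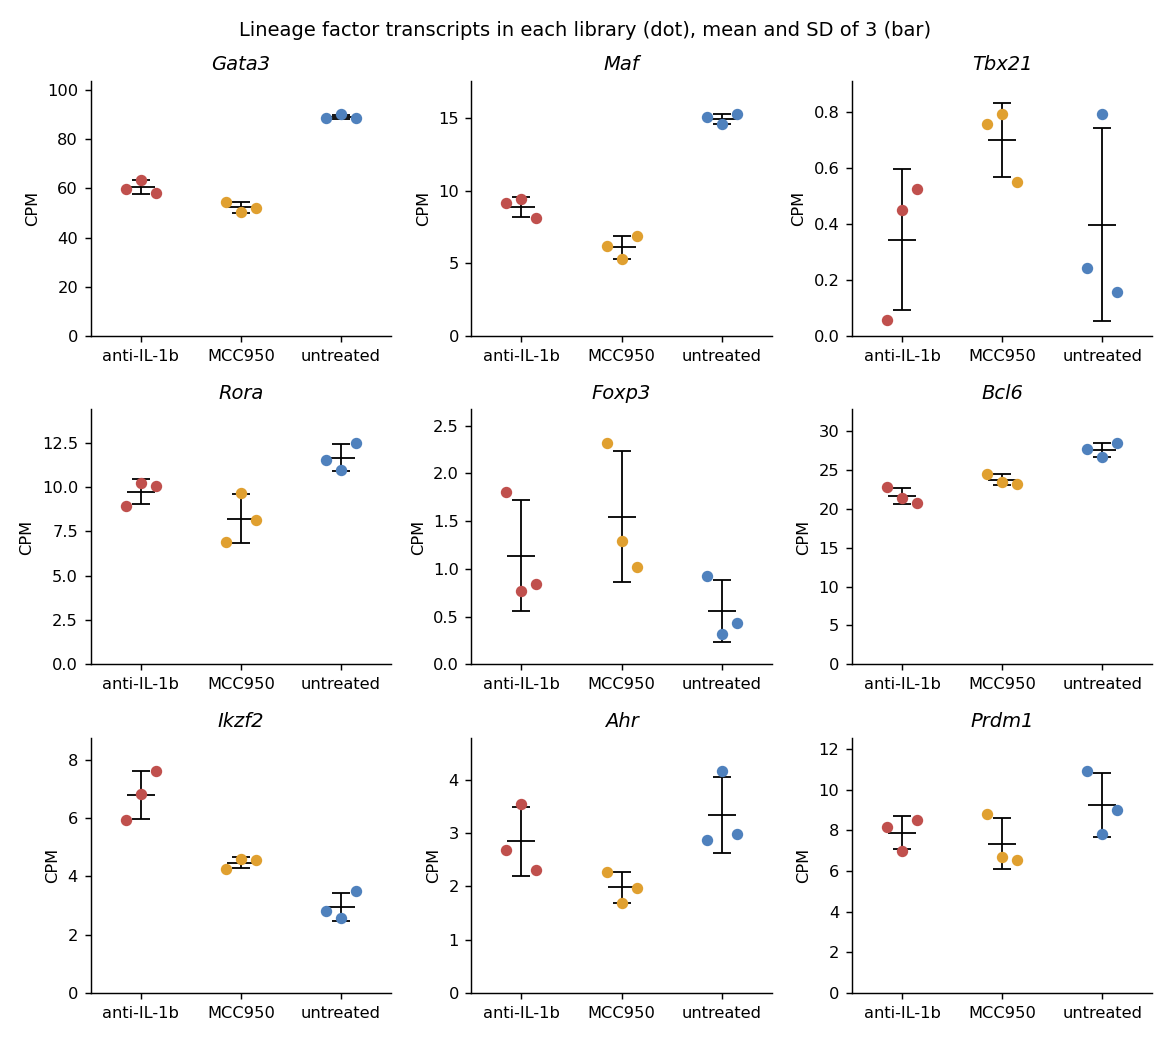
CPM of each lineage factor in each library (dots), with the mean and SD of 3 libraries (bars) for the anti-IL-1b, MCC950 and untreated groups; each panel has its own axis, which starts at 0. Gata3 and Maf show 3 separate levels, lowest with MCC950, while the groups of Tbx21 and Prdm1 overlap with the untreated group.

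Gata3, the gene of the zinc finger factor of type 2 cells, fell with both agents and had the smallest error of the 9. Gata3 (ENSMUSG00000015619, mm10 chromosome 2, 9857078 to 9890034, minus strand) had expected counts of 1030, 986 and 885 in the anti-IL-1b libraries, 935, 952 and 947 in the MCC950 libraries, and 1454, 1822 and 1696 in the untreated libraries. In CPM these were 59.9, 63.6 and 58.1 with the antibody, 54.6, 50.3 and 52.0 with MCC950, and 88.6, 90.1 and 88.7 without treatment. No library of any group overlapped with another group. Gata3 fell by 0.56 ± 0.060 (SE) on the log2 scale with the antibody against untreated (adjusted p = 6.5e-10), to 0.679 times the untreated mean. With MCC950 it fell by 0.77 ± 0.060 against untreated (adjusted p = 1.18e-13), to 0.586 times the untreated mean.

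Maf, a basic leucine zipper factor, supports IL-4 production in type 2 cells and has further roles in follicular, type 17 and IL-10-producing cells. Maf (ENSMUSG00000055435, mm10 chromosome 8, 115682942 to 115707794, minus strand) had expected counts of 157, 146 and 124 in the anti-IL-1b libraries, 107, 99.99 and 125 in the MCC950 libraries, and 247, 295 and 292 in the untreated libraries. On the CPM scale Maf stood at 9.14, 9.41 and 8.14 with the antibody, 6.23, 5.28 and 6.86 with MCC950, and 15.1, 14.6 and 15.3 in the untreated group. Every treated library lay below every untreated one, and every MCC950 library below every antibody library. The log2 fold change against untreated was -0.75 ± 0.15 (SE) with the antibody (adjusted p = 0.000108) and -1.29 ± 0.15 with MCC950 (adjusted p = 7.33e-09, edgeR). The fall with MCC950 is the largest of the 9 genes in either comparison, at 0.409 times the untreated mean.

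Gata3 and Maf were also the lineage factors that passed between the agents in the edgeR fit over all 9 libraries. Gata3 was 1.16 times as high with the antibody as with MCC950, a log2 difference of 0.21 ± 0.062 (95% interval 0.09 to 0.33, adjusted p = 0.0167, edgeR). Maf was 1.45 times as high with the antibody as with MCC950, a log2 difference of 0.54 ± 0.16 (95% interval 0.23 to 0.85, adjusted p = 0.0181). Both differences rest on few libraries. The call of Gata3 was lost without anti-IL-1b replicate 2 (log2 difference 0.18, adjusted p = 0.104), without MCC950 replicate 2 (0.18, 0.0911) or without MCC950 replicate 3 (0.21, 0.0574). The call of Maf was lost without anti-IL-1b replicate 1 (log2 difference 0.52, adjusted p = 0.0517), without anti-IL-1b replicate 2 (0.50, 0.069) or without MCC950 replicate 2 (0.44, 0.112). The Maf call was also lost with limma on log2(TPM + 1) (0.37, adjusted p = 0.234) and on log2(TPM + 0.1) (0.54, adjusted p = 0.234).

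Genes with the most similar profile over the 9 libraries were ranked by the Euclidean distance of centred log2 CPM among 9112 genes. For Gata3 they were Epc1 (distance 0.112), Nr1d2 (0.137) and Zswim6 (0.145). Epc1, a subunit of a histone acetyltransferase complex, stood at a mean of 119.6 CPM with the antibody, 105.8 with MCC950 and 176.2 without treatment. For Maf they were Sertad2 (0.411), Hist1h1c (0.439) and mt-Rnr2 (0.462).

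Most other tested genes of the type 2 list fell as well, some of them shared with the handling and activation list. Of the 16 genes listed for type 2 cells, 10 were tested, and 8 fell and none rose with the antibody, with 8 down and none up with MCC950 as well. Over all tested genes 18.5% fell with the antibody and 19.1% with MCC950. The median log2 fold change of the 10 tested genes of the list was -0.69 with the antibody and -0.87 with MCC950, beside 0.00 and 0.01 over all tested genes. Nfil3, a leucine zipper repressor, stood at 1.90 ± 0.494 CPM with the antibody, 1.74 ± 0.809 with MCC950 and 15.9 ± 2.20 in the untreated group, log2 fold changes of -3.07 ± 0.24 (adjusted p = 6.14e-13) and -3.20 ± 0.24 (adjusted p = 1.82e-13). Gfi1, a repressor that supports the growth of type 2 cells, fell by 1.04 ± 0.12 with the antibody and by 1.24 ± 0.12 with MCC950 (adjusted p = 4.4e-09 and 5.49e-11). Il4ra, the IL-4 receptor chain that signals through STAT6, fell by 0.28 ± 0.032 with the antibody and by 0.12 ± 0.032 with MCC950 (adjusted p = 2.51e-09 and 0.00201). Scaling by library totals moved the all-gene median by 0.113 with MCC950, about the size of that fall of Il4ra. Jun and Junb, which the list shares with the handling and activation genes, fell by 2.98 ± 0.032 and 3.42 ± 0.072 with the antibody (adjusted p = 1.27e-42 and 2.29e-08). With MCC950 they fell by 3.60 ± 0.033 and 3.74 ± 0.073 (adjusted p = 5.65e-45 and 1.37e-08). Both medians of the list include Jun and Junb. Among the untested members, Il4 and Il13, named here after their values were seen, had 0 counts each in the anti-IL-1b group, 0 each in the MCC950 group, and 4 and 0 over the 3 libraries of the untreated group.

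Tbx21, which encodes T-bet, was barely detected. Tbx21 (ENSMUSG00000001444, mm10 chromosome 11, 97098071 to 97115331, minus strand) had expected counts of 1, 7 and 8 in the anti-IL-1b libraries, 13, 15 and 10 in the MCC950 libraries, and 4, 16 and 3 in the untreated libraries. The untreated group alone spans nearly the range of all 9 libraries, and the groups overlap in both comparisons with it. The log2 fold change was -0.25 (95% interval -1.78 to 1.29, adjusted p = 0.846) with the antibody and 0.78 (95% interval -0.64 to 2.20, adjusted p = 0.43) with MCC950, and both intervals include either sign. With the antibody the fitted sign turned, to 0.75 without untreated replicate 2 and 0.27 without anti-IL-1b replicate 1. Tbx21 was dropped by a filter of CPM at least 1 in 3 libraries. It was also dropped when the antibody and untreated libraries were filtered and fitted alone. Of the 13 tested genes of 16 listed for type 1 cells, 2 rose and 5 fell with the antibody, and 0 rose and 6 fell with MCC950, with medians of -0.05 and -0.05. Over all tested genes 15.4% rose and 18.5% fell with the antibody, and 17.7% rose and 19.1% fell with MCC950. The chains of the interferon gamma receptor were among the listed genes that fell. Ifngr1 fell by 0.91 ± 0.045 with the antibody and by 0.93 ± 0.044 with MCC950 (adjusted p = 6.23e-20 and 2.84e-20), and Ifngr2 by 0.71 ± 0.067 and 0.68 ± 0.066 (adjusted p = 2.66e-11 and 5.34e-11). Runx3, a partner of T-bet at the interferon gamma gene, fell by 0.58 ± 0.054 with the antibody and by 0.40 ± 0.053 with MCC950 (adjusted p = 1.36e-11 and 6.17e-08). Ifng itself, untested and named after its values were seen, had 14 counts in the anti-IL-1b group, 2 in the MCC950 group and 14 in the untreated group.

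Rora encodes RORα, a nuclear receptor that takes part in the differentiation of type 17 cells. Rora (ENSMUSG00000032238, mm10 chromosome 9, 68653786 to 69388246, plus strand) had expected counts of 154, 159 and 153 in the anti-IL-1b libraries, 118, 183 and 148 in the MCC950 libraries, and 189, 222 and 239 in the untreated libraries. The CPM values were 8.96, 10.2 and 10.0 with the antibody, 6.89, 9.67 and 8.12 with MCC950, and 11.5, 11.0 and 12.5 without treatment. Both treated groups lay wholly below the untreated one, the antibody group by a narrow gap. Rora fell by 0.50 ± 0.16 on the log2 scale with MCC950 (adjusted p = 0.0097, edgeR), and this call was lost without MCC950 replicate 1, the lowest library (-0.38, adjusted p = 0.0847). With the antibody the log2 fold change was -0.26 (95% interval -0.56 to 0.04, adjusted p = 0.205). The 2 agents did not differ detectably for Rora (0.24, 95% interval -0.07 to 0.55, adjusted p = 0.367).

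Of 17 genes listed for type 17 cells, 9 were tested, of which 1 rose and 5 fell with the antibody, and 0 rose and 6 fell with MCC950, with medians of -0.50 and -0.43. Over all tested genes 15.4% rose and 18.5% fell with the antibody, and 17.7% rose and 19.1% fell with MCC950. The medians over all tested genes were 0.00 and 0.01. Irf4, a factor induced by T cell receptor signals and used by several subsets, stood at 6.07 ± 1.05 CPM with the antibody, 5.65 ± 0.341 with MCC950 and 63.2 ± 3.57 in the untreated group, log2 fold changes of -3.38 ± 0.12 (adjusted p = 2.88e-25) and -3.48 ± 0.11 (adjusted p = 8.19e-26). Its partner Batf fell by 0.70 ± 0.098 with the antibody and by 0.55 ± 0.097 with MCC950 (adjusted p = 2.5e-07 and 1.34e-05). Stat3, which carries the IL-6 signal, fell by 0.24 ± 0.036 with the antibody and by 0.27 ± 0.036 with MCC950 (adjusted p = 8.8e-07 and 9.27e-08).

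Ahr encodes the aryl hydrocarbon receptor, a ligand-activated factor used by type 17 cells and for IL-22. Ahr (ENSMUSG00000019256, mm10 chromosome 12, 35497974 to 35535038, minus strand) had expected counts of 46, 55 and 35 in the anti-IL-1b libraries, 39, 32 and 36 in the MCC950 libraries, and 47, 84 and 57 in the untreated libraries. In CPM these were 2.68, 3.54 and 2.30 with the antibody, 2.28, 1.69 and 1.97 with MCC950, and 2.87, 4.16 and 2.98 in the untreated group. The MCC950 libraries all lay below the untreated ones, while the antibody libraries overlapped with them. Neither comparison passed, with log2 fold changes of -0.24 (95% interval -0.84 to 0.37, adjusted p = 0.608) with the antibody and -0.75 (95% interval -1.37 to -0.14, adjusted p = 0.0558) with MCC950. The second lies close to the threshold, at an adjusted p of 0.0493 with DESeq2. It did not pass in 11 of 12 alternative settings, where the adjusted p reached 0.0989. Over 9 edgeR fits without 1 library it ran from 0.05 to 0.232, and 8 did not pass. The 2 agents did not differ detectably for Ahr (0.52, 95% interval -0.10 to 1.14, adjusted p = 0.324, edgeR).

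Most tested genes around the receptor fell with either agent. Of 10 genes listed around the receptor 6 were tested, of which 5 fell with the antibody and 4 with MCC950, with medians of -1.27 and -0.94 and none higher. Over all tested genes 18.5% fell with the antibody and 19.1% with MCC950. Arnt, the partner of the receptor, named after its values were seen, did not pass with the antibody (0.02, adjusted p = 0.79, edgeR). With MCC950 it did not pass either (-0.06, adjusted p = 0.405). The chaperone Hsp90aa1, which keeps the receptor in the cytoplasm and serves many other proteins, stood at 331.7 ± 3.88 CPM with the antibody, 397.8 ± 13.6 with MCC950 and 1857 ± 38.9 without treatment. Its log2 fold changes were -2.48 ± 0.029 (adjusted p = 1.9e-41) and -2.22 ± 0.029 (adjusted p = 4.08e-40). Ptges3, a cochaperone, fell by 1.09 ± 0.051 with the antibody and by 0.72 ± 0.050 with MCC950 (adjusted p = 1.43e-20 and 4.01e-15). Tiparp, a target that feeds back on the receptor, fell by 1.56 ± 0.093 with the antibody and by 1.65 ± 0.093 with MCC950 (adjusted p = 3.68e-17 and 5.65e-18). Cyp1a1, the classical target, was untested and is named after its values were seen, with 0 counts in the anti-IL-1b group, 7 in the MCC950 group and 0 in the untreated group.

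Ikzf2 encodes Helios, an Ikaros family factor found in many regulatory T cells and in cells that met strong receptor signals. Ikzf2 (ENSMUSG00000025997, mm10 chromosome 1, 69531214 to 69687245, minus strand) had expected counts of 102, 106 and 116 in the anti-IL-1b libraries, 73, 87 and 83 in the MCC950 libraries, and 46, 52 and 67 in the untreated libraries. The CPM values were 5.94, 6.83 and 7.61 with the antibody, 4.26, 4.59 and 4.55 with MCC950, and 2.80, 2.57 and 3.50 in the untreated group. The 3 groups form separate ranges, highest with the antibody. Ikzf2 rose with the antibody to 2.29 times the untreated mean, a log2 fold change of 1.195 ± 0.22 (adjusted p = 4.71e-05, edgeR), and each of 9 fits without 1 library kept this call. With MCC950 it rose by 0.59 ± 0.23 (adjusted p = 0.0382), a call lost (log2 fold change and adjusted p given for each) without untreated replicate 1 (0.57, 0.0838) or 2 (0.50, 0.127) and without MCC950 replicate 1 (0.63, 0.061), 2 (0.57, 0.0939) or 3 (0.59, 0.0858). The MCC950 call was also lost with limma-voom (0.60, adjusted p = 0.0566), with a filter of 1 count (0.60, 0.0666) and in a fit to the 6 libraries of that comparison (0.60, 0.0654). The log2 difference between the agents was 0.60 (95% interval 0.17 to 1.03) and lay close to the threshold. It did not pass in the edgeR fit over 9 libraries (adjusted p = 0.0621) and passed with DESeq2 (0.61, adjusted p = 0.0475) and in a fit to the 6 libraries of the agents (0.60, adjusted p = 0.0341). The difference did not pass in the other 10 of 12 alternative settings, where its adjusted p reached 0.732. None of the 9 edgeR fits without 1 library passed (adjusted p from 0.0534 to 0.231).

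Its relatives did not share 1 direction. Ikzf4, which encodes Eos, a partner of Foxp3, stood at 13.7 ± 0.505 CPM with the antibody, 11.0 ± 1.36 with MCC950 and 6.63 ± 1.26 in the untreated group, log2 fold changes of 1.05 ± 0.16 (adjusted p = 1.26e-06) and 0.73 ± 0.16 (adjusted p = 0.000311). Ikzf3, the gene of Aiolos, rose by 0.31 ± 0.043 with the antibody and by 0.11 ± 0.043 with MCC950 (adjusted p = 1.79e-07 and 0.0359). Ikzf1, the gene of Ikaros and the most abundant of the family here, fell by 0.17 ± 0.025 with the antibody and by 0.28 ± 0.025 with MCC950 (adjusted p = 1.56e-06 and 7.41e-12). These falls stand beside shifts of 0.127 and 0.113 in the all-gene medians with scaling by library totals. Nearest to Ikzf2 in profile were Ampd1 (distance 0.489), Zfp974 (0.518) and Padi3 (0.557).

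Foxp3, the factor of regulatory T cells, had few counts in every library. Foxp3 (ENSMUSG00000039521, mm10 chromosome X, 7573644 to 7595245, plus strand) had expected counts of 31.03, 11.92 and 12.85 in the anti-IL-1b libraries, 39.76, 24.51 and 18.55 in the MCC950 libraries, and 15.21, 6.5 and 8.2 in the untreated libraries. Its CPM was 1.81, 0.768 and 0.843 with the antibody, 2.32, 1.29 and 1.02 with MCC950, and 0.927, 0.322 and 0.429 without treatment. Replicate 1 was the highest library of each group, and the lowest MCC950 library lay just above the highest untreated one. Foxp3 rose with MCC950 by 1.54 ± 0.57 on the log2 scale (adjusted p = 0.03, edgeR), a call lost (log2 fold change and adjusted p given for each) without untreated replicate 2 (1.24, 0.129) or 3 (1.38, 0.0952) and without MCC950 replicate 1 (1.14, 0.219) or 2 (1.64, 0.0538). With the antibody the log2 fold change was 1.10 (95% interval -0.03 to 2.23, adjusted p = 0.146). The 2 agents did not differ detectably for Foxp3 (-0.44, 95% interval -1.49 to 0.61, adjusted p = 0.682). The value is uncertain because other genes overlap Foxp3. Flicr lies on the same strand and had 148.0 counts in the anti-IL-1b group, 132.89 in the MCC950 group and 121.66 in the untreated group, more than the 55.8, 82.82 and 29.91 of Foxp3, while Ccdc22, Ppp1r3f and Gm36995 lie on the opposite strand.

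Genes of regulatory T cells moved both ways. Of 21 tested genes of 22 listed, 3 rose and 6 fell with the antibody, and 5 rose and 7 fell with MCC950, with medians of -0.10 and -0.05. All tested genes moved both ways too, with 15.4% up and 18.5% down with the antibody and 17.7% up and 19.1% down with MCC950. Ctla4, an inhibitory receptor of regulatory and activated T cells, stood at 3.08 ± 0.964 CPM with the antibody, 3.12 ± 1.08 with MCC950 and 43.9 ± 1.83 in the untreated group, log2 fold changes of -3.82 ± 0.18 (adjusted p = 2.21e-17) and -3.81 ± 0.17 (adjusted p = 1.56e-17). Tnfrsf9, the costimulatory receptor 4-1BB, rose by 2.88 ± 0.32 with the antibody and by 2.58 ± 0.32 with MCC950 (adjusted p = 1.57e-09 and 2.03e-08). Itgae, the integrin chain CD103, is also found on CD8 T cells and dendritic cells. It stood at 3.09 ± 0.00556 CPM with the antibody, 3.21 ± 0.474 with MCC950 and 0.312 ± 0.201 without treatment, and rose by 3.25 ± 0.43 and 3.30 ± 0.43 (adjusted p = 8.91e-08 and 5.33e-08). Cd8a, a CD8 marker, stood at 19.4 ± 2.69 CPM with the antibody, 19.7 ± 1.07 with MCC950 and 0.970 ± 0.270 in the untreated group, and its part in the rise of Itgae was not tested.

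BCL6 and BLIMP-1, the product of Prdm1, repress each other's genes, and their balance separates follicular helper cells from other effector cells. Bcl6 (ENSMUSG00000022508, mm10 chromosome 16, 23965052 to 23988852, minus strand) had expected counts of 391, 331 and 316 in the anti-IL-1b libraries, 420, 443 and 423 in the MCC950 libraries, and 453, 539 and 544 in the untreated libraries. The CPM values were 22.8, 21.3 and 20.7 with the antibody, 24.5, 23.4 and 23.2 with MCC950, and 27.6, 26.7 and 28.5 in the untreated group. All treated libraries were below all untreated ones, with the antibody libraries lowest. Bcl6 fell by 0.35 ± 0.096 with the antibody (adjusted p = 0.00378, edgeR), to 0.784 times the untreated mean. With scaling by library totals alone, which moves the median of all genes by 0.13, the log2 fold change was -0.22 and did not pass (adjusted p = 0.0616). With MCC950 the log2 fold change was -0.22 (95% interval -0.40 to -0.03, adjusted p = 0.0675, edgeR). It passed with limma-voom (adjusted p = 0.0476) and not in the other 11 of 12 alternative settings, where the adjusted p reached 0.413. None of the 9 edgeR fits without 1 library passed (adjusted p from 0.0642 to 0.173). The agents did not differ detectably for Bcl6 (-0.13, 95% interval -0.32 to 0.06, adjusted p = 0.433).

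Prdm1 (ENSMUSG00000038151, mm10 chromosome 10, 44437177 to 44528501, minus strand) had expected counts of 140, 108 and 130 in the anti-IL-1b libraries, 151, 127 and 119 in the MCC950 libraries, and 179, 158 and 172 in the untreated libraries. On the CPM scale it stood at 8.15, 6.96 and 8.53 with the antibody, 8.81, 6.71 and 6.53 with MCC950, and 10.9, 7.82 and 8.999 in the untreated group, so that each treated group overlapped with it. The log2 fold change was -0.23 (95% interval -0.57 to 0.12, adjusted p = 0.349) with the antibody and -0.33 (95% interval -0.67 to 0.01, adjusted p = 0.144) with MCC950. The ratio of Bcl6 to Prdm1 counts was 2.79, 3.06 and 2.43 in the anti-IL-1b libraries, 2.78, 3.49 and 3.56 in the MCC950 libraries, and 2.53, 3.41 and 3.16 in the untreated libraries, with all 3 groups overlapping. BLIMP-1 is also the factor of plasma cells, whose 5 markers summed to 32.2 to 37.8 CPM with the antibody, 36.5 to 42.1 with MCC950 and 58.8 to 63.6 in the untreated group. That sum is almost wholly Xbp1, which T cells also express, at a mean of 32.5 CPM with the antibody, 36.9 with MCC950 and 60.05 without treatment, and Xbp1 fell by 0.89 and by 0.70 on the log2 scale (adjusted p = 3.89e-12 and 9.34e-10). Jchain, which joins secreted antibody units, went the other way, at 1.97 CPM with the antibody, 1.66 with MCC950 and 0.127 in the untreated group, log2 fold changes of 3.89 and 3.64 (adjusted p = 4.75e-06 and 1.35e-05). Tnfrsf17 was at 0 in all groups, and the part of these genes in Prdm1 was not tested.

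**Figure D3:**
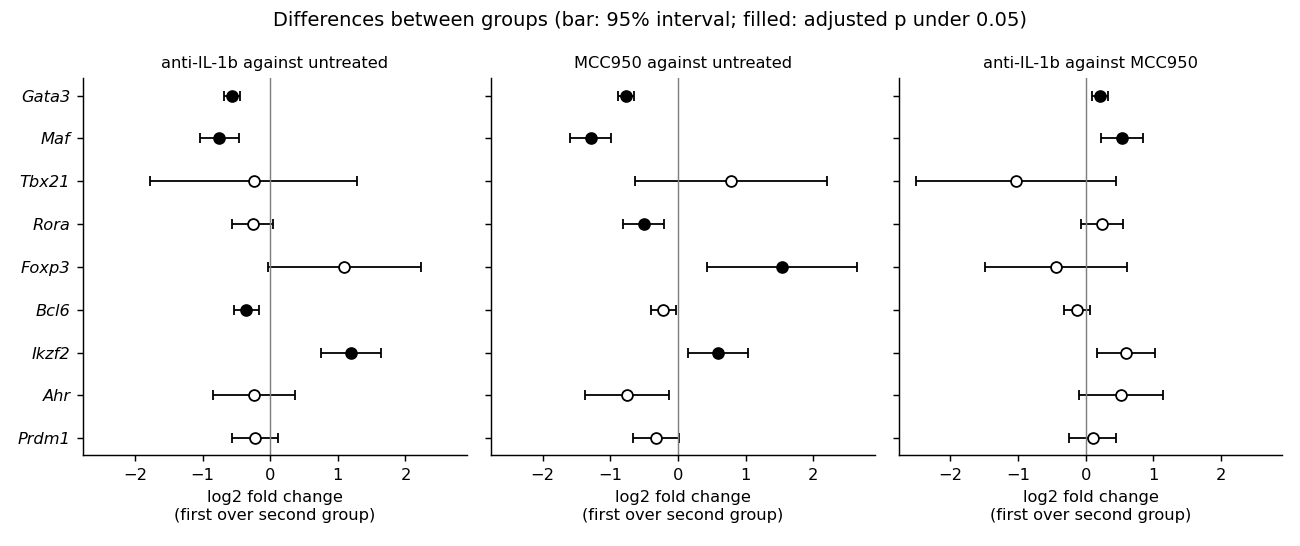
Log2 fold change of each lineage factor (CPM scale, edgeR) for the antibody against untreated, MCC950 against untreated and the antibody against MCC950, with bars of 95% intervals and filled circles for an adjusted p under 0.05. The short bars of Gata3 (SE 0.060) contrast with the long ones of Tbx21 (SE 0.78 and 0.72) and Foxp3 (SE 0.58 and 0.57) in the comparisons with untreated.

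Genes of the follicular program also went in both directions. Of 15 tested genes of 18 listed, 7 rose and 4 fell with the antibody, and 3 rose and 7 fell with MCC950, with medians of -0.02 and 0.00. The shares over all tested genes were 15.4% up and 18.5% down with the antibody, and 17.7% up and 19.1% down with MCC950. Cd40lg, the ligand through which helper cells license B cells, fell by 1.39 ± 0.057 with the antibody and by 1.52 ± 0.057 with MCC950 (adjusted p = 1.83e-22 and 9.94e-24), and the costimulatory receptor gene Icos by 0.61 ± 0.080 and 0.63 ± 0.079 (adjusted p = 6.59e-08 and 2.56e-08). Pou2af1, a coactivator that is also a B cell gene, rose by 1.22 ± 0.16 with the antibody and by 1.03 ± 0.16 with MCC950 (adjusted p = 9.25e-08 and 2.34e-06). Tcf7, the gene of TCF1, which supports Bcl6 and the naive state, separated the agents. It stood at 1627 ± 39.9 CPM with the antibody, 1378 ± 17.3 with MCC950 and 1649 ± 33.3 in the untreated group, a difference between the agents of 0.24 ± 0.024 (adjusted p = 1.48e-09) and a log2 fold change against untreated of -0.02 (adjusted p = 0.594) with the antibody and -0.26 ± 0.024 (adjusted p = 2.18e-11) with MCC950.

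Regions before RefSeq starts of Gata3 and of Bcl6 are shown because these were the 2 best measured lineage factors and both were lower in every treated library. Each is 250 bases upstream of a RefSeq start (GRCm38.p6, the mm10 build), in lower case, with capitals where letters match 1 of 7 searched motifs on either strand. Of the 9 genes, 6 had an entry in the promoter table. The Gata3 entry is for a start inside the span of the gene given above. The Bcl6 entries are for a start at the outer end of the gene and another inside it.
Gata3, inner start (chr2:9878601-9878850, minus strand): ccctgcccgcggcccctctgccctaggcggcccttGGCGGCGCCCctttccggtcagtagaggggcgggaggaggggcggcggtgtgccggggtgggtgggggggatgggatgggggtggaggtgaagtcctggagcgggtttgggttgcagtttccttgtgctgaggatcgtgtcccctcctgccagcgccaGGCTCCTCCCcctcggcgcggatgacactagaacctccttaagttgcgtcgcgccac
Bcl6, outer start (chr16:23988853-23989102, minus strand): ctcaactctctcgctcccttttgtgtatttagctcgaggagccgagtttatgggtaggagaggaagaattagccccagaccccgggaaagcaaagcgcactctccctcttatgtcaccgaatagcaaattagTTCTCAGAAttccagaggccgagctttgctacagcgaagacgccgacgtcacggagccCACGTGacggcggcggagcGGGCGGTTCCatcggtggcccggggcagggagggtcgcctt
Bcl6, inner start (chr16:23981284-23981533, minus strand): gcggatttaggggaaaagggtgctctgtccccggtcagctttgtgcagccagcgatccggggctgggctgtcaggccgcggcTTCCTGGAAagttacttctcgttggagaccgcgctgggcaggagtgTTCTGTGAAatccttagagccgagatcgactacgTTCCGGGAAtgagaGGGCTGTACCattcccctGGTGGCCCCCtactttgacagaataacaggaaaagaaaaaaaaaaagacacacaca
The motifs were those of AP-1 (TGANTCA), CRE (TGACGTCA), NF-kB (GGG and CC with any 5 bases between them), STAT (TTCNNNGAA), heat shock factors (TTCNNGAA), GATA factors (AGATAA) and the E-box (CACGTG), found in 6.75, 1.55, 45.8, 7.02, 7.17, 9.99 and 6.02% of 32851 mouse promoters of this length. The Gata3 window matched the NF-kB letters at 2 places and no other motif. The outer Bcl6 window held 1 STAT match, the E-box letters and 1 NF-kB match, and the inner one held 3 STAT matches and 2 NF-kB matches. The STAT letters resemble the sequence that BCL6 itself binds. A match describes the letters only, and nothing in these data bears on binding there.

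Expected counts and TPM gave different calls for several of the 9 genes. TPM rests on a length that RSEM estimated in each library from transcripts of very different size. Rora has transcripts of 508 to 10878 bases, and its abundance-weighted length was 9502, 8275 and 7110 bases in the anti-IL-1b libraries, 8577, 5123 and 7789 in the MCC950 libraries, and 5117, 6593 and 6234 in the untreated libraries. For Ikzf2 it was 6878, 6429 and 5020 bases with the antibody, 5255, 2766 and 9079 with MCC950, and 4702, 3432 and 7342 without treatment. The Ikzf2 lengths overlap between all groups, while those of Rora were longer in every antibody library than in any untreated one and overlapped between MCC950 and untreated. The length enters TPM as a divisor. The TPM of Ikzf2 was 1.33, 1.65 and 2.38 in the anti-IL-1b libraries, 1.21, 2.60 and 0.740 in the MCC950 libraries, and 0.840, 1.07 and 0.660 in the untreated libraries. Tested as log2(TPM + 1) with limma, Gata3 and Maf alone of the 9 genes passed with either agent against untreated. Ikzf2 then had a log2 difference of 0.57 with the antibody (adjusted p = 0.139) and 0.38 with MCC950 (adjusted p = 0.334), Bcl6 of -0.18 with the antibody (adjusted p = 0.194), and Rora and Foxp3 of -0.43 and 0.45 with MCC950 (adjusted p = 0.195 and 0.132). The TPM test also differs from the count test in its scaling and its model, and Bcl6 lost its call at lengths of 3.55 to 3.57 kb. The part of length in these differences was not tested.

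**Figure D4:**
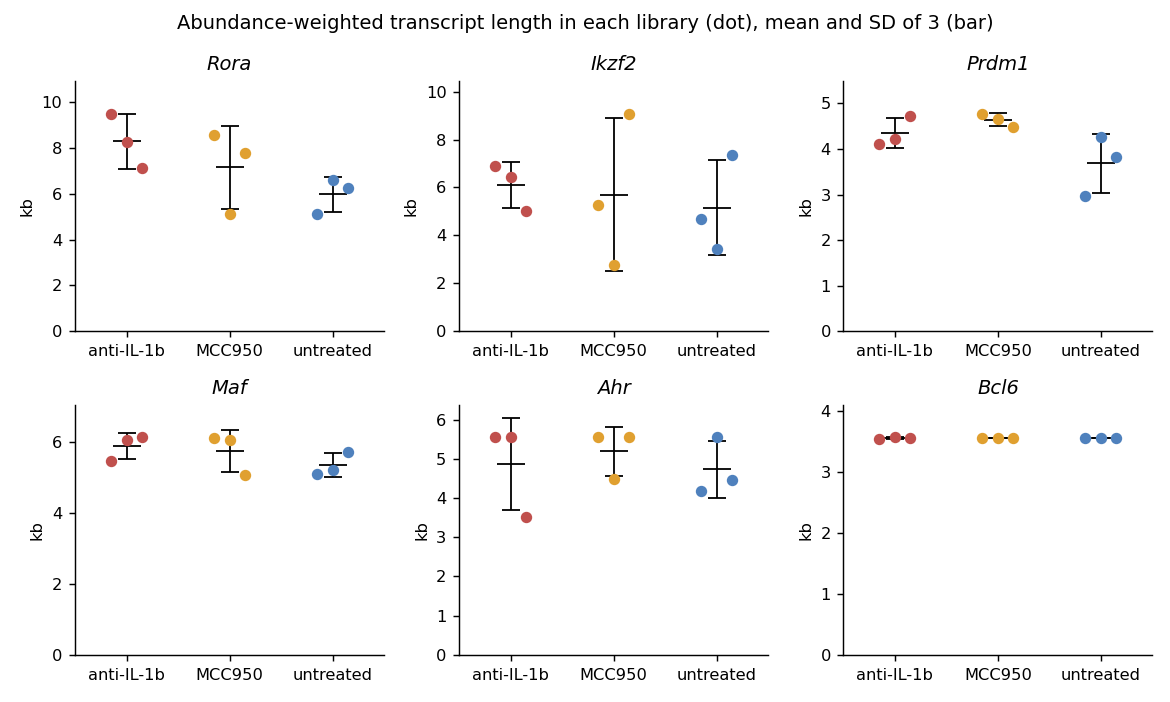
Abundance-weighted transcript length in kb of 6 lineage factors in each library (dots), with the mean and SD of 3 libraries (bars), by group; each axis starts at 0. The lengths of Bcl6 are almost constant, at 3.55 to 3.57 kb, while those of Ikzf2 spread from 2.77 to 9.08 kb.

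Maf has 2 annotated transcripts, one of 3223 bases and 3 exons and one of 6360 bases and 1 exon. The estimated share of the longer one was 72.1, 91.0 and 93.1% in the anti-IL-1b libraries, 92.4, 90.6 and 59.2% in the MCC950 libraries, and 60.2, 63.9 and 80.2% in the untreated libraries. Both treated groups overlap with the untreated one. Bcl6 has a coding transcript of 3525 bases and a retained-intron transcript of 3933 bases, and the estimated share of the longer one was 6.45 to 11.4% in the anti-IL-1b libraries, 8.47 to 9.64% in the MCC950 libraries and 7.69 to 9.20% in the untreated libraries. Tbx21 has a single annotated transcript of 2488 bases.

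With TMM scaling, genes that work with or against the lineage factors fell more often than they rose. Of 19 genes listed as partners or repressors, all tested, 2 rose and 9 fell with the antibody, and 2 rose and 13 fell with MCC950, with medians of -0.12 and -0.19. Over all tested genes 15.4% rose and 18.5% fell with the antibody, with a median of 0.00. With MCC950 17.7% rose and 19.1% fell, with a median of 0.01. Scaling by library totals moved these all-gene medians by 0.127 and 0.113. Over the other settings 8 to 13 of the 19 passed with the antibody and 8 to 16 with MCC950. Klf2, a factor of quiescent naive cells, fell by 1.31 ± 0.030 with the antibody and by 1.44 ± 0.030 with MCC950 (adjusted p = 1.59e-31 and 6.38e-33). Bcor, a corepressor that binds BCL6, fell by 0.46 ± 0.040 with the antibody and by 0.27 ± 0.040 with MCC950 (adjusted p = 4.44e-12 and 4.93e-07). Foxp1, a relative of Foxp3 that keeps naive cells quiescent, stood at 337.2 ± 4.54 CPM with the antibody, 281.7 ± 9.93 with MCC950 and 399.9 ± 3.56 in the untreated group. It fell by 0.25 ± 0.032 with the antibody and by 0.51 ± 0.032 with MCC950 (adjusted p = 5.71e-08 and 2.84e-16), and it differed between the agents by 0.26 ± 0.032 (adjusted p = 1.52e-07). Zbtb7b, the gene of ThPOK, the factor of the CD4 lineage, was higher with MCC950. Its levels were 250.9 ± 9.22 CPM with the antibody, 305.2 ± 14.8 with MCC950 and 243.0 ± 3.28 without treatment, a log2 fold change with MCC950 of 0.33 ± 0.036 (adjusted p = 1.27e-09).

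**Figure D5:**
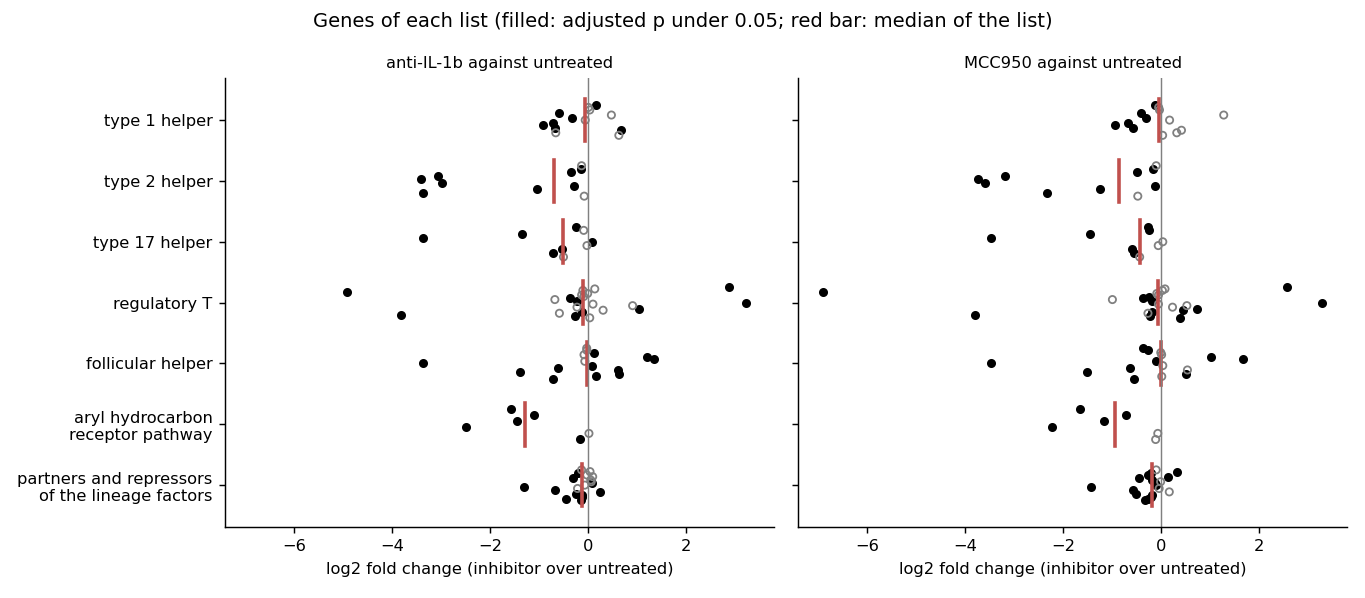
Log2 fold change (CPM scale, edgeR) of every tested gene of the 5 subset lists, the aryl hydrocarbon receptor list and the list of partners and repressors, for the antibody and for MCC950 against untreated; filled circles passed an adjusted p of 0.05 and red bars are medians. The medians of the type 2 list, at -0.69 and -0.87, and of the aryl hydrocarbon receptor list, at -1.27 and -0.94, lie farthest below 0. The type 2 list includes Jun and Junb, which are also handling and activation genes. The receptor list includes the chaperone and cochaperone genes Hsp90aa1, Hsp90ab1 and Ptges3.

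Relatives of the lineage factors by structural family moved both ways. Of 39 listed relatives 22 were tested, of which 5 rose and 6 fell with the antibody, and 3 rose and 7 fell with MCC950, with medians of 0.00 and -0.05. Beside these, 15.4% of all tested genes rose and 18.5% fell with the antibody, and 17.7% rose and 19.1% fell with MCC950. The small Maf genes, which lack the activation domain of Maf, included the largest falls named from this list. Maff stood at 2.58 ± 0.988 CPM with the antibody, 2.41 ± 0.773 with MCC950 and 79.7 ± 6.63 in the untreated group, log2 fold changes of -4.96 ± 0.18 (adjusted p = 3.33e-14) and -5.04 ± 0.17 (adjusted p = 2.12e-14). Mafk fell by 1.62 ± 0.055 with the antibody and by 1.39 ± 0.054 with MCC950 (adjusted p = 2.43e-25 and 2.13e-23). Maff is known as an early stress response gene. All 12 handling and activation genes were lower in the same treated libraries, and their part in the fall of Maff was not tested.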

How the data were processed

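Poly(A) RNA of 9 libraries was read from RSEM gene tables and grouped by the labels alone. STAR and RSEM were run on mm10, per the submitters' processing notes; versions, annotation release and strand setting are not given in the sources used here. The deposited expected counts are fractional read estimates of RSEM without normalization, per the file headers. Deposited TPM was scaled by effective length and to a common total per library by the authors, per the file headers. The deposited lengths are weighted by transcript abundance, per the file headers, and with 2 transcripts they give the share of each.

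IDs were named from GENCODE M21 (99.4% matched). Rounded expected counts were tested with edgeR 4.0.16 (R 4.3.3; quasi-likelihood, robust, TMM, filterByExpr, 3 group means over 9 libraries), two-sided, adjusted by Benjamini-Hochberg over 13374 genes at 0.05; 95% intervals are normal, from the SE. Counts carry no molecular identifiers. The test was also run on simulated counts with known changes. Alternatives were other scalings and filters, DESeq2 1.42.0, limma 3.58.1 (voom, and log2(TPM + 1) or + 0.1), a replicate block, no robust option, each comparison's own 6 libraries, and leaving out each library.

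The members and gene lists were chosen with earlier results of these data known. All 9 members are named, and from each list only genes among the 5 with the smallest p past the threshold; markers at 0 are named for that, after their values were seen, and others are named as so chosen. Similar profiles were sought for members whose mean log2 CPM reached 2. Promoter sequences are RefSeq's (GRCm38.p6).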

Additional observations from a re-analysis of the deposited data

Results flagged for a closer look

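In edgeR's test of the difference between the 2 agents over all 9 libraries, 2 of the 9 lineage factors passed. Over all tested genes 13.2% passed, so this count is no result about lineage factors. Gata3 was higher with the antibody than with MCC950 by 0.212 on the log2 scale, at 60.5 against 52.3 CPM. Maf was higher with the antibody than with MCC950 by 0.539 on the log2 scale, at 8.89 against 6.13 CPM. Both genes were below the untreated group with either agent. The libraries whose removal ended each call are named in the report.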

How the results depend on the processing

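With limma on log2(TPM + 1) or log2(TPM + 0.1), 2 of the 9 lineage factors passed with the antibody and 2 with MCC950, against 4 and 5, and 1 against 2 passed between the agents; the cause was not tested. Leaving out 1 library gave 4 with the antibody each time, 2 to 6 with MCC950 and 0 to 2 between the agents, with 2 without MCC950 replicate 1, 3 without MCC950 replicate 2 or untreated replicate 2, 0 without anti-IL-1b replicate 2 or MCC950 replicate 2, and 1 without anti-IL-1b replicate 1 or MCC950 replicate 3. With the antibody the log2 fold change of Tbx21 ran from -0.679 to 0.753 over the fits without 1 library and reversed to 0.753 without untreated replicate 2 and to 0.27 without anti-IL-1b replicate 1. Over the log2 fold changes of the 9 genes, fits without 1 library left 224 on the same side of the threshold, 16 lost a call, 1 gained one and 2 reversed; other settings left 299, lost 16 and gained 4. All-gene counts moved by over 1.5 times with log2(TPM + 1), to 3263 against 4921 with MCC950, and to 572 (565 with log2(TPM + 0.1)) against 1771 between the agents. With upper-quartile scaling 58.1% of the called genes were higher with the antibody and 56.4% with MCC950, with library totals 74.5 and 71.6%, and with log2(TPM + 1) 75.4 and 66.5%, against 45.5 and 48.1%; between the agents the share was 63.5% with log2(TPM + 1) against 46.3%. Among the list counts, log2(TPM + 1) left 4 of 21 regulatory T genes called against 9 with the antibody, 6 against 12 with MCC950, and 8 of 19 partners against 15 with MCC950.

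With the replicate number as a block, 4, 5 and 2 lineage factors passed and no call of a lineage factor changed. Same-numbered libraries of different groups deviated together only weakly (correlations of 0.028 to 0.199 over 9 pairs, against -0.172 to 0.083 over 18 others), so the numbers were not taken to pair libraries. Tbx21 and Foxp3 had at most 16 and 39.76 counts per library, and the share of counting error in their wide intervals was not tested.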
